A study of Mus musculus with 18 samples.

Results

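The 4 circRNAs described here, each made from the transcript of a gene with a role in endocytic or endosomal trafficking, were mmu_circRNA_27268 of Appl1 (probe ASCRP4000707), mmu_circRNA_24601 of Itsn2 (ASCRP4000971), mmu_circRNA_44763 of Dopey1 (ASCRP4002352) and mmu_circRNA_39011 of Bmp2k (ASCRP4008563). They are 4 of the 14236 circRNA probes on the array and 4 of the 12211 probes that passed the filter on dim signals. All of them were selected on the m6A level in the 3d group against the sham group, since they came from the lists of circRNAs with the largest changes in that comparison: Appl1 from the list of higher levels, the other 3 from the list of lower levels. Their values in 3d vs. sham are therefore described here without a test, and the same holds for 7d vs. 3d and 7d vs. sham, which use the same 3d or sham arrays.

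A circRNA is a closed RNA ring that forms when the end of an exon is joined back to the start of the same or an earlier exon, so that it lacks free ends and resists the exonuclease RNase R. N6-methyladenosine (m6A) is a methyl mark on adenosine that is set, removed and bound by dedicated proteins, and it also occurs on circRNAs. Endocytosis takes up membrane and receptors in coated vesicles, which deliver them to early endosomes for recycling, return to the Golgi or breakdown, and neurons use it to retrieve synaptic vesicles and to set the number of receptors at the synapse. Of the host genes, Itsn2 encodes an intersectin, a scaffold of clathrin-coated pits, and Bmp2k encodes a kinase related to the AP2-associated kinase Aak1. Appl1 encodes an adaptor that binds Rab5 on early endosomes, and Dopey1 (Dop1a in the current nomenclature) encodes a protein of endosome and Golgi membrane traffic. These are functions of the proteins. The arrays measured only the circRNAs. The circRNAs of Appl1, Itsn2, Dopey1 and Bmp2k are exonic and lie on chromosomes 14, 12, 9 and 5.

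Cortex was taken from 10-week-old C57BL/6J mice in 3 groups of 3 samples. In the 3d and 7d groups it came from around the infarct, 3 and 7 days after a permanent occlusion of the distal middle cerebral artery (MCAO) with an electrosurgical knife, to which a short occlusion of both common carotid arteries was added. The sham group had the surgery without the MCAO, and its time of sampling was not used here. RNA bound by an anti-m6A antibody (IP, Cy5) and the unbound RNA (Sup, Cy3) were digested with RNase R and hybridized together, on 1 array per sample. The m6A level is IP as a percentage of IP + Sup, and expression is IP + Sup, both after scaling on spike-in RNA. All 3d and 7d arrays shared a slide, and a second slide held the sham arrays. Group and slide therefore cannot be told apart in any comparison with sham. In whole tissue, fewer cells that hold a circRNA and less of it per cell cannot be told apart either.

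Across the arrays, the median level of the tested circRNAs was 32.7% to 32.8% in the 3d group, 35.6% to 42.3% in the 7d group and 33.3% to 34.0% in the sham group. The median expression was 199 to 215 arbitrary units in 3d, 176 to 286 in 7d and 182 to 187 in sham. The highest value of both belonged to 7d replicate 3, which stood apart from the other 8 arrays on these background-corrected and scaled values. Its median raw intensity was 44 scanner units in IP and 63 in Sup. The same medians were 42 and 56 on 7d replicate 1, and 45 and 62 on 7d replicate 2. With the processed signals of the scanner software, the median level of 7d replicate 3 was 36.6%. It was 38.8% and 36.3% on 7d replicates 1 and 2, so the array did not stand apart there. With these signals the median level was 28.3%, 30.4% and 24.0% on 3d replicates 1, 2 and 3. On sham replicates 1, 2 and 3 it was 39.1%, 36.6% and 30.2%. On this scale the level over all tested circRNAs was thus mostly lower in 3d than in sham. The probes well above background in both channels numbered 10718 to 12281 per array, and no circRNA spot was saturated. Precision is limited by the number of arrays. Unless stated otherwise, standard errors pool the spread within all 3 groups and draw it toward that of all tested circRNAs, so they are not the spread of the compared samples alone.

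These circRNAs differed in how often they rose above background, and this decides what can be said about each (see the plot of scanner intensities). Bmp2k and Dopey1 were well above background on 9 of 9 arrays in IP and Sup alike. Appl1 was well above background on 9 of 9 arrays in the Sup channel but on 3 in the IP channel, and these were the 3d arrays. It passed the filter through those 3 arrays alone. Itsn2 was well above background on 6 arrays in the Sup channel and on 4 in the IP channel, which were the 3 sham arrays and 7d replicate 3. Appl1 and Itsn2 thus had no measured IP signal in at least one group, and a level there has only a bound.

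**Figure D1:**
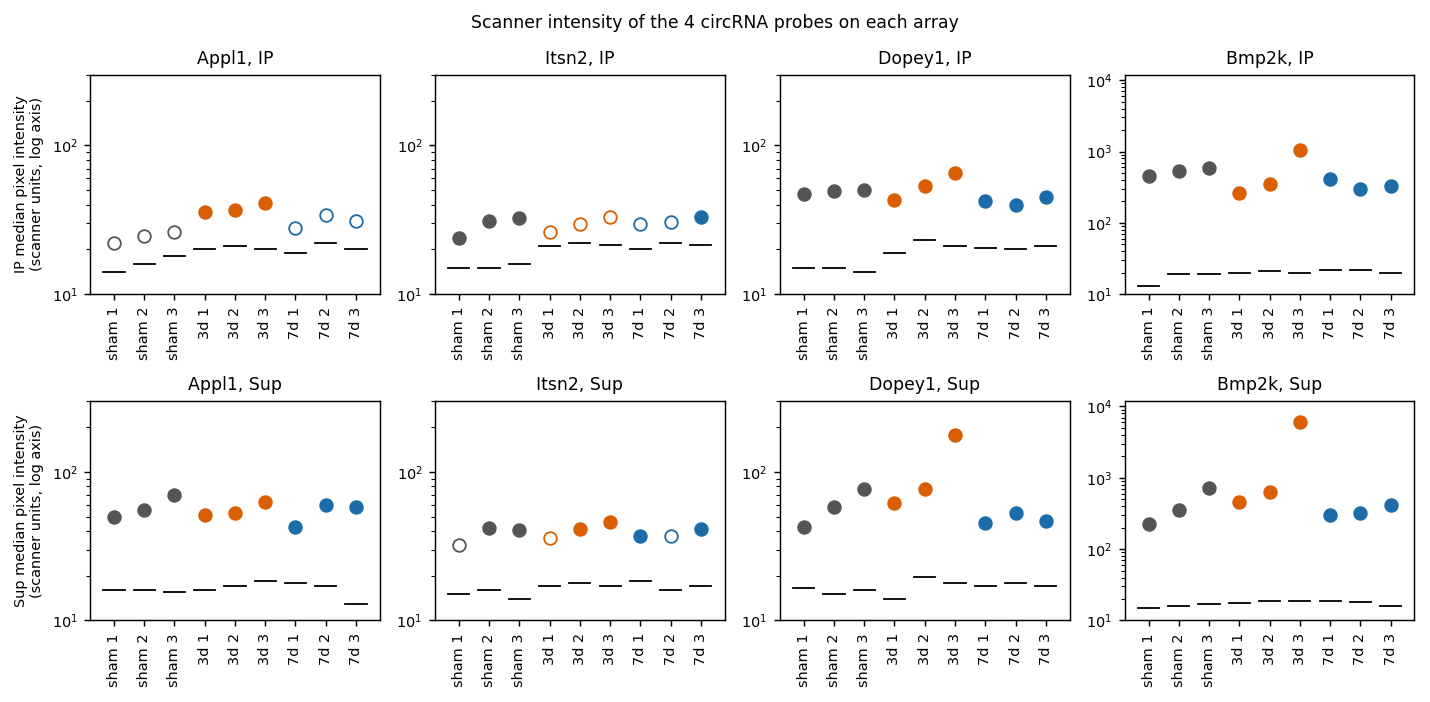
Median pixel intensity of each circRNA probe (log axis, scanner units) on the 9 arrays, with the IP channel above and the Sup channel below. Filled points were well above background, open points were not, and black bars mark the local background. The axis of Bmp2k reaches higher than the others. The Sup signal of Bmp2k stood at 5986 on 3d replicate 3.

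Bmp2k, whose protein belongs to a kinase family that acts on the AP2 adaptor of clathrin-coated vesicles, was measured in both channels on every array. Its level was 50.3%, 47.1% and 34.0% on sham replicates 1, 2 and 3. It was 25.0%, 24.8% and 10.0% on 3d replicates 1, 2 and 3. On 7d replicates 1, 2 and 3 it was 45.0%, 37.2% and 36.3%. The 3 levels of the 3d group lay below every sham and 7d level, whereas the sham and 7d levels overlapped. The median level over all tested circRNAs was also lowest on the 3d arrays, by a smaller margin. The share of all tested circRNAs whose 3d levels lay below all others was not counted.

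The mean level of Bmp2k was 43.8% ± 8.62 (SD, n = 3) in sham, 20.0% ± 8.58 in 3d and 39.5% ± 4.82 in 7d. On the log2 scale the level in 3d vs. sham fell by 1.23 (standard error 0.32) and that in 7d vs. 3d was 1.1 higher (standard error 0.32). From the spread of Bmp2k alone on the arrays compared, the standard errors were 0.47 and 0.45. The median change over all tested circRNAs was -0.029 in the first comparison and 0.19 in the second.

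Over all arrays, the Sup channel of Bmp2k moved more than the IP channel. Its IP intensity was 450, 537 and 592.5 scanner units on sham replicates 1, 2 and 3, and 263, 351.5 and 1035 on the 3d replicates. In the 7d replicates it was 410, 302 and 326. The Sup intensity was 225, 349 and 718 in sham, 458, 624.5 and 5986 in 3d, and 302.5, 317.5 and 410 in 7d. In both sham and 3d, replicate 3 had the highest Sup intensity and the lowest level. The median Sup intensity of all circRNA probes was also highest on replicate 3 in both groups, at 72 in sham and 78.5 in 3d. After scaling, the log2 IP of Bmp2k in 3d vs. sham differed by -0.080 (standard error 0.33) and its log2 Sup by 1.67 (standard error 0.53). The groups overlapped in both channels. For 7d vs. 3d the log2 differences were -0.39 (standard error 0.33) in IP and -1.89 (standard error 0.53) in Sup, and here the Sup signals of the groups did not overlap.

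One array carried much of this size. On 3d replicate 3 the scaled Sup signal of Bmp2k was 8.70-fold that of the other 3d arrays, a ratio exceeded by 6 of the 12211 tested probes. The 24 spots next to it had a median Sup intensity of 78 on that array, against 56.25 and 67.75 on 3d replicates 1 and 2. These values were close to the medians of all circRNA probes, 78.5 on that array against 60.5 and 69.5. The Bmp2k spot carried neither a saturation nor an outlier mark on any array. Without 3d replicate 3, the log2 level of Bmp2k in 3d vs. sham differed by -0.79 and that in 7d vs. 3d by 0.66, so the directions stayed and the sizes shrank. The levels of 3d replicates 1 and 2 were still below the lowest sham level. On those arrays the scaled IP was 251 and 297, below the sham values of 366 to 460, whereas 3d replicate 3 had 798. Their scaled Sup was 752 and 899, against 362 to 894 in sham. Thus the small mean difference of IP in 3d vs. sham also rested on 3d replicate 3.

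Expression of Bmp2k followed the Sup channel. It was 728, 884 and 1354 units on sham replicates 1, 2 and 3, and 1002, 1195 and 7947 on the 3d replicates. It was 772, 715 and 786 on the 7d replicates. The 3d and sham values overlapped, and every 3d value was above every 7d value. The log2 expression differed by 1.15 (standard error 0.46) in 3d vs. sham and by -1.49 (standard error 0.46) in 7d vs. 3d. From the spread of Bmp2k alone on the arrays compared, these standard errors were 0.99 and 0.96. Without 3d replicate 3 the differences were 0.20 and -0.53.

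Dopey1, whose protein acts in membrane traffic between endosomes and the Golgi, also had its lowest levels in the 3d group. Its level was 39.2%, 37.4% and 34.6% on sham replicates 1, 2 and 3, and 31.4%, 31.0% and 22.6% on the 3d replicates. It was 38.5%, 35.7% and 43.6% on the 7d replicates. Again the 3d levels lay below all the others, and the sham and 7d levels of Dopey1 overlapped. The 3d medians over all tested circRNAs were also below those of the other arrays, by a smaller margin. The means of Dopey1 were 37.1% ± 2.29 (SD, n = 3) in sham, 28.3% ± 4.99 in 3d and 39.3% ± 4.0 in 7d. The log2 level differed by -0.40 (standard error 0.13) in 3d vs. sham and by 0.48 (standard error 0.13) in 7d vs. 3d. From the spread of Dopey1 alone on the arrays compared, the standard errors were 0.16 and 0.18. The sizes of these differences moved with the scaling: with all spike-in probes they were -0.20 and 0.19. The second was 0.23 after centering on the median circRNA and 0.14 after loess.

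As with Bmp2k, the IP signal of Dopey1 varied less than its Sup signal. The IP intensity was 47.5, 49.5 and 50 scanner units on the sham replicates, 43, 53 and 65 on the 3d replicates, and 42, 40 and 45 on the 7d replicates. The Sup intensity was 42.5, 58 and 77 in sham, 62, 77 and 177 in 3d, and 45, 53 and 47 in 7d. The Dopey1 Sup signal on 3d replicate 3 was 1.74-fold that of the other 3d arrays after scaling, a ratio exceeded by 569 probes. With the offset of 50, the log2 Sup differed by 0.63 (standard error 0.24) in 3d vs. sham, and the log2 IP by 0.045 (standard error 0.27). With the processed signals the scaled IP was lower in 3d, at 256 to 339 against 382 to 424 in sham. The scaled Sup was higher there, at 831 to 2304 against 272 to 639, and neither channel overlapped. The median processed level over all tested circRNAs was also mostly lower in 3d than in sham, as given above. Without 3d replicate 3 the log2 level in 3d vs. sham differed by -0.25.

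Dopey1 expression was 159, 164 and 182 units on the sham replicates and 200, 197 and 307 on the 3d replicates. It was 146, 154 and 267 on the 7d replicates, the last of them on the array with the highest median expression. The 3d values were above every sham value but overlapped those of 7d, and the array medians over all tested circRNAs did the same. The log2 expression differed by 0.45 (standard error 0.24) in 3d vs. sham and by -0.34 (standard error 0.24) in 7d vs. 3d. Without 3d replicate 3 these differences were 0.24 and -0.13, and without 7d replicate 3 the second was -0.62. Without 7d replicates 1 or 2 it was -0.18 or -0.22.

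**Figure D2:**
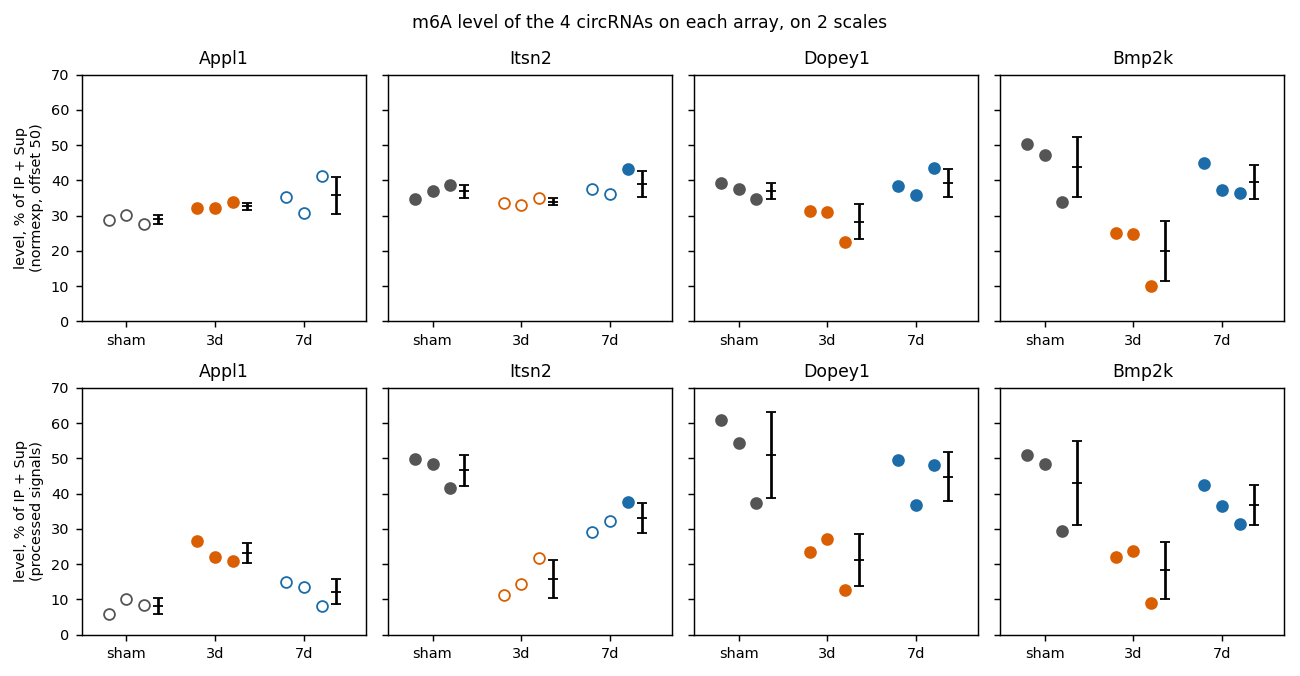
m6A level (IP as a percentage of IP + Sup) of each circRNA on each array, by group, with the mean and SD of 3 arrays in black. The upper row used background-corrected intensities with an offset of 50, the lower row the processed signals of the scanner software, and open points had an IP signal not well above background. The 3d levels of Dopey1 and Bmp2k are below all sham and 7d levels in both rows, whereas Appl1 and Itsn2 spread apart mainly in the lower row.

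Appl1, whose protein marks early endosomes, was measured in the IP channel only after 3 days. Its IP intensity was 35.5, 37 and 41 scanner units on 3d replicates 1, 2 and 3, over a local background of 20, 21 and 20. It was 22, 24.5 and 26 on the sham replicates, over 14, 16 and 18, and 28, 34 and 31 on the 7d replicates, over 19, 22 and 20. The 3d intensities were above all others, and the local background of the sham arrays was lower than that of the other slide. The Sup intensity of Appl1 was 50, 55 and 69.5 in sham, 51.5, 53 and 63 in 3d, and 42.5, 60 and 58 in 7d, with overlap among all groups.

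The level of Appl1 differed between the 2 scales used. With the offset of 50 it was 28.9%, 30.3% and 27.7% on the sham replicates and 32.1%, 32.1% and 33.9% on the 3d replicates. With the processed signals, which carry no such offset, the sham levels were 5.85%, 10.2% and 8.45%, and the 3d levels were 26.5%, 22.0% and 21.0%. The 3 values of 3d were above those of sham on both scales. As a bound, the IP signal of Appl1 in 3d was at least 1.87-fold that of sham with the processed signals. The bound sets the mean of the 3d arrays against the mean, over the sham arrays, of the lowest signal that was still well above background or the probe's own signal, whichever was higher. With the offset the ratio was 1.22. There the probe's own sham signal was the higher, so 1.22 is the ratio of the measured means.

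At 7 days the IP signal of Appl1 was again not well above background on any array. The 3d signal was at least 1.66-fold that of 7d with the processed signals. With the offset the same ratio was 0.83, so a higher signal in 3d was not shown on that scale. The 7d levels were 35.2%, 30.7% and 41.2% with the offset, and 15.1%, 13.6% and 8.10% with the processed signals. The mean level of 7d was thus above that of 3d on the first scale and below it on the second, and it was also below after other scalings of the offset values. Since neither 7d nor sham had a measured IP signal, no fold change of level or IP is given for that pair.

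Itsn2, whose protein organizes clathrin-coated pits, showed the opposite pattern of detection. Its IP intensity was 24, 31 and 32.5 scanner units on the sham replicates, over a local background of 15, 15 and 16, and all of them were well above background. On the 3d replicates it was 26, 29.5 and 33, over 21, 22 and 21.5, and none was. On the 7d replicates it was 29.5, 30.5 and 33, over 20, 22 and 21.5, and only replicate 3 was. The raw IP intensities of the 3 groups overlapped, and it was the local background that lay lower on the sham arrays. Those arrays are on the other slide, and the part of the slide in this difference cannot be told apart from that of the group.

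The Sup intensity of Itsn2 was 32, 42 and 40.5 in sham, 36, 41 and 46 in 3d, and 37, 37 and 41 in 7d, with full overlap. With the offset, its level was 34.8%, 37.1% and 38.6% on the sham replicates, 33.7%, 33.1% and 35.1% on the 3d replicates, and 37.7%, 36.2% and 43.3% on the 7d replicates. The sham and 3d levels overlapped on this scale. With the processed signals the levels were 49.7%, 48.5% and 41.7% in sham, 11.3%, 14.4% and 21.7% in 3d, and 29.3%, 32.4% and 37.7% in 7d. No group overlapped another. The median processed level over all tested circRNAs was also mostly lower in 3d than in sham. As a bound on the group means, the IP signal of Itsn2 in sham was at least 1.12-fold that of 3d with the processed signals. This bound compares means and not single arrays. With the offset the ratio of the measured means was 1.05, which is not a bound. The scaled IP values overlapped there, at 44.7 to 48.7 in sham and 43.5 to 46.6 in 3d. The larger differences in processed level therefore rested on 3d signals that had only a bound.

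With the offset, expression of the dim circRNAs, which came mostly from Sup, varied less among sham and 3d arrays than between 7d replicate 3 and the rest. Appl1 had a mean expression of 149 ± 7.13 units (SD, n = 3) in sham, 161 ± 10.5 in 3d and 187 ± 74.8 in 7d. Itsn2 had 128 ± 1.75 in sham, 133 ± 5.12 in 3d and 170 ± 77.7 in 7d. On 7d replicate 3 the values of Appl1 and Itsn2 were 272 and 260 units, the highest of each circRNA. With the processed signals, Appl1 expression on 7d replicate 3 was 699, within the 3d values of 607 to 756. Its lowest value was then 226, on 7d replicate 1. Itsn2 was still highest on 7d replicate 3, at 336. The small SDs held on the offset scale only. In sham, the SD as a percentage of the mean was 1.36% for Itsn2 and 4.80% for Appl1 with the offset. It was 16.6% and 23.3% with the processed signals. With the offset, mean expression of Itsn2 ranked at percentiles 5.87, 0.082 and 0.52 of the tested circRNAs in sham, 3d and 7d. Its Sup signal was not well above background on sham replicate 1, 3d replicate 1 and 7d replicate 2.

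Between 7d and sham, Bmp2k and Dopey1 were measured in both channels on every array, and their levels overlapped. The sham arrays took part in the selection, so this comparison too is given without a test. The log2 level of Bmp2k differed by -0.14 (standard error 0.32) and that of Dopey1 by 0.080 (standard error 0.13). That of Itsn2, with 1 of 3 7d arrays measured in the IP channel, differed by 0.081 (standard error 0.081), and no value is given for Appl1. From the spread of the probe alone on the arrays compared, the standard error was 0.20 for Bmp2k and 0.099 for Dopey1. The median over all tested circRNAs was 0.15. Without 7d replicate 3 the differences were -0.077 for Bmp2k and 0.0024 for Dopey1. No such value is given for Itsn2, because that was its only 7d array measured in the IP channel. With the processed signals the differences were -0.19 for Bmp2k, -0.17 (standard error 0.29) for Dopey1 and -0.50 (standard error 0.23) for Itsn2. The sign for Dopey1 and Itsn2 thus depended on the processing.

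Expression in 7d vs. sham gave log2 differences of -0.34 (standard error 0.46) for Bmp2k and 0.11 (standard error 0.24) for Dopey1. The difference was 0.26 (standard error 0.23) for Appl1 and 0.32 (standard error 0.24) for Itsn2. The median over all tested circRNAs was 0.23. The 3 positive values rested on 7d replicate 3. Without that array they were -0.17 for Dopey1, -0.044 for Appl1 and -0.035 for Itsn2, and -0.36 for Bmp2k.

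**Figure D3:**
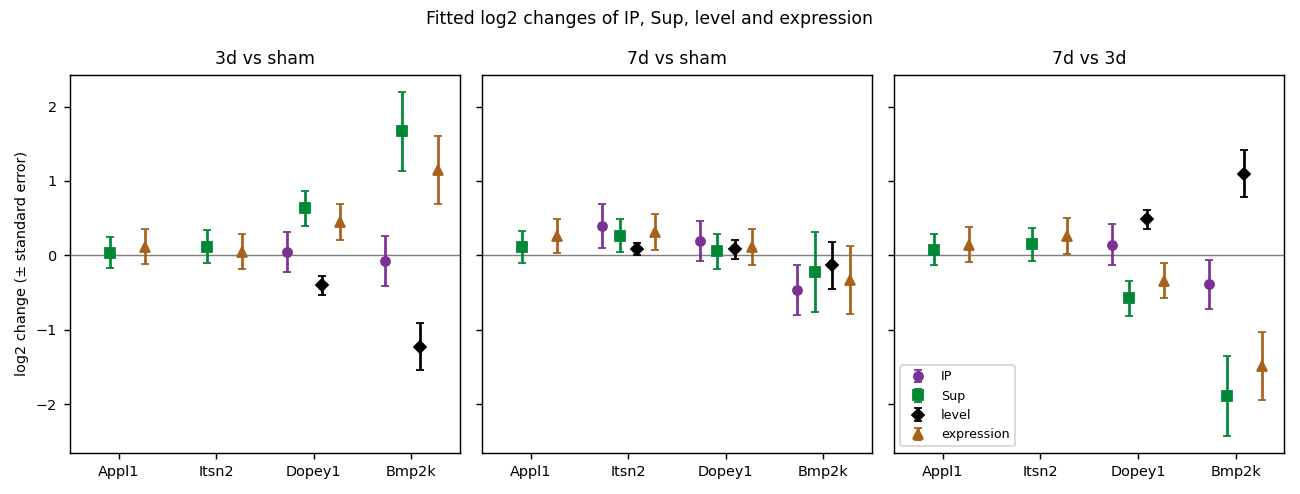
Fitted log2 change of IP, Sup, level and expression for each circRNA in the 3 comparisons, with standard errors. IP and level are left out where a group had no IP signal well above background, which applies to Appl1 in all 3 comparisons and to Itsn2 in those with 3d. Bmp2k stands out in 3d vs. sham and 7d vs. 3d through Sup, with changes of 1.67 and -1.89, and its level moves the other way.

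For orientation, the share of all tested circRNAs past the threshold of the methods, more than a 1.5-fold change together with P below 0.05 before adjustment, is set beside the number of these circRNAs past it. Nothing is read from these numbers, because the arrays of every comparison include some that took part in the selection. In level, 1.98% of all tested circRNAs passed in 3d vs. sham, 0.442% in 7d vs. sham and 3.91% in 7d vs. 3d. In expression the shares were 2.64%, 3.95% and 8.36%. Bmp2k passed in 3d vs. sham and 7d vs. 3d, in level and in expression, and in 7d vs. sham none of the circRNAs measured in both groups did. Dopey1, with a log2 level difference of -0.40 in 3d vs. sham, lay short of the log2 value of 0.58 that a 1.5-fold change needs when the offset was used, and differed by -1.30 with the processed signals. With the processed signals Dopey1 and Bmp2k passed in level in 3d vs. sham and in 7d vs. 3d, where 2232 and 3110 of the 12211 tested circRNAs did. Appl1 and Itsn2 also passed there, with an IP signal that had only a bound in one of the groups compared.

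**Figure D4:**
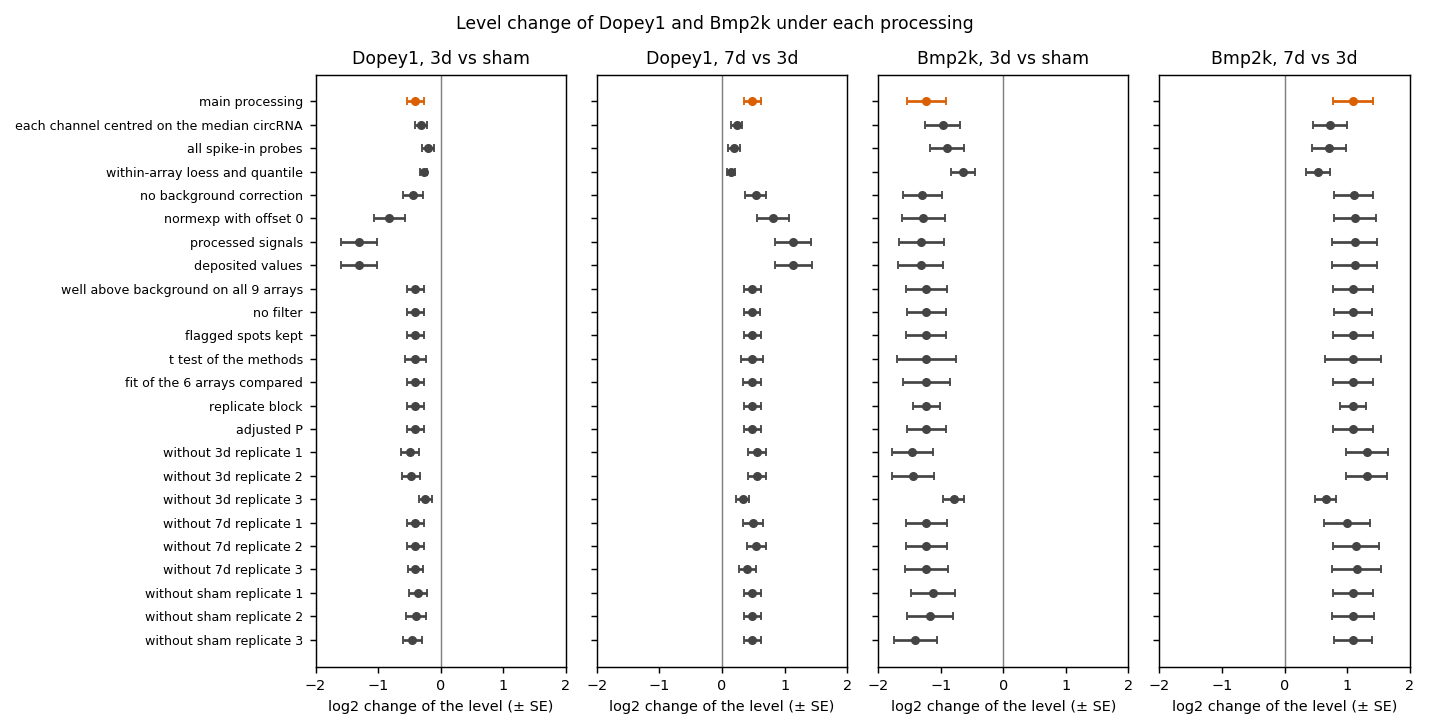
Log2 change of the level (horizontal axis, with standard error) of Dopey1 and Bmp2k in 3d vs. sham and 7d vs. 3d under the main processing (orange) and under each alternative, including each array left out in turn. Every point lies below 0 in 3d vs. sham and above 0 in 7d vs. 3d, and the points of Dopey1 reach from -1.31 to -0.20 in the first comparison and from 0.14 to 1.14 in the second.

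As a description of their patterns, each log2 level was centered on its own mean over the 9 arrays. The mean absolute difference was 0.13 between Appl1 and Itsn2, 0.14 between Itsn2 and Dopey1, 0.35 between Dopey1 and Bmp2k and 0.56 between Appl1 and Bmp2k, which were taken from opposite lists. Among all tested probes with a value on every array, the nearest to Bmp2k were ASCRP4011924, at 0.073, with mean levels of 46.7% in sham, 22.1% in 3d and 42.3% in 7d, and ASCRP4004537, at 0.087, with 47.5%, 20.7% and 40.5%. The nearest to Dopey1 were ASCRP4007643, at 0.024, with mean levels of 33.5%, 25.2% and 35.5% in the same order, and ASCRP4000853, at 0.037. The nearest to Appl1 were ASCRP4004893 and ASCRP4005650, both at 0.028, and the nearest to Itsn2 were ASCRP4002607, at 0.015, and ASCRP4012957, at 0.016. The genes of these 8 probes are not paired with them in the tables used here.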

How the data were processed

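The authors deposited the intensities that Agilent Feature Extraction 11.0.1.1 gave for each spot, and the log2 values of their deposited table were recovered here from the processed signals, scaled on 10 spike-in probes, with a largest difference of 5.6e-10. The 4 circRNAs, the processing and the comparisons were chosen with earlier results of these data known. Names were joined to probes through the fold change and P that the paper lists.

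Main values were computed in R 4.3.3 with limma 3.58.1 and jsonlite 2.0.0. Median pixel intensities were background-corrected with normexp and an offset of 50, spots marked as outliers were left out, and each channel was shifted to the same mean of the 10 spike-in probes on the log2 scale. Each circRNA had 1 spot. A probe was tested where 3 or more of the 9 arrays had it well above background in IP and Sup (12211, with 2025 left out). The log2 level and log2 expression of all 9 arrays were fitted with lmFit and eBayes, with Benjamini-Hochberg adjustment over all tested probes. The fit was tested on simulated data. Alternatives were 14 other settings and leaving out each array in turn. Standard errors come from this fit, which draws the spread of each probe toward that of all tested probes, and the number of arrays limits them. The 7d vs. sham comparison was planned as a test and is given as a description, because the sham arrays took part in the selection.

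Groups and replicate numbers follow the titles of the samples. For sham replicate 3 and for 7d replicates 2 and 3, the description gives another number. The 2 files of each array were identical, and the IP values were read from one and the Sup values from the other. In level, samples of the same number deviated together in sham and 3d (correlations of 0.40, 0.21 and 0.46) and in 3d and 7d (0.13, 0.26 and 0.33), but not in sham and 7d (0.0040, -0.013 and 0.035). The fit has no block. For each circRNA, the 2 probes nearest in centered log2 level were named. A wider list of endocytosis genes was not used, because the tables used here do not pair probes with genes. Probe sequences were not used here.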

Additional observations from a re-analysis of the deposited data

Results flagged for a closer look

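The change of Bmp2k from sham differed between 3 and 7 days. The log2 level in 7d vs. 3d differed by 1.1 (standard error 0.32) and the log2 expression by -1.49 (standard error 0.46). The 3d arrays helped to select this circRNA, so both values are descriptions without a test. Without 3d replicate 3, on which the Sup signal was 8.70-fold that of the other 3d arrays, they were 0.66 and -0.53. The part of that array's Sup signal in the difference was not tested further.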

How the results depend on the processing

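The 4 circRNAs were recomputed under 14 other settings and without each of the 9 arrays in turn, which gave 540 values. Of these, 45 had the other sign, all but 2 of them from changes that did not pass the threshold under either processing. The 2 others were the level of Appl1 in 7d vs. 3d, 0.12 on the log2 scale in the main processing, -0.97 with the processed signals and -0.96 with the deposited values. The 7d IP signal of Appl1 was not well above background, so these are not measured on both sides. The filter on all 9 arrays left Dopey1 and Bmp2k.

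Of the 4 circRNAs, the level in 3d vs. sham called 1 in the main processing, 4 with an offset of 0, the processed signals or the deposited values, and 0 with the methods' t test. Over all circRNAs these calls were 242 in the main processing, 803, 2232 and 2293 with those 3 settings, and 89 with the t test. The t test was run here on the offset values. The paper, from its own signals, lists every circRNA described here as changed in this comparison. For the circRNA of Appl1, the paper also reports a separate assay, PCR on the antibody-bound RNA. There it found a significantly higher methylation level in the same comparison. That assay is not part of the array data and was not examined here. The calls over all circRNAs for the level ran from 0 to 902 in 7d vs. sham (54 in the main processing) and from 117 to 3201 in 7d vs. 3d (478), and those for expression from 19 to 2812 in 3d vs. sham (322), from 26 to 1769 in 7d vs. sham (482) and from 507 to 3464 in 7d vs. 3d (1021). The level in 7d vs. sham called 0, and 1 with an offset of 0 (Appl1, not above background in either group). The level in 7d vs. 3d called 1 in the main processing, 0 with loess or the t test, 3 with an offset of 0, and 4 with the processed signals or the deposited values. Expression in 3d vs. sham called 1 in the main processing and 0 with median centering, all spike-in probes, quantile normalization, an offset of 0, the t test, the 6 arrays compared or adjusted P. It was Dopey1 and not Bmp2k that passed with no background correction (0.60), the processed signals (0.87) or the deposited values (0.87). Expression in 7d vs. 3d called 1 in the main processing, 0 with median centering, quantile normalization, the t test or adjusted P, and 2 (Dopey1 and Bmp2k) with the processed signals or the deposited values. With no background correction it was Dopey1 (-0.76) and not Bmp2k. The cause was not tested.

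Leaving out single arrays moved the count for expression in 3d vs. sham between 0 and 1 (0 without 3d replicate 3, 7d replicate 3 or sham replicate 1) and that for expression in 7d vs. 3d between 0 and 1 (0 without 3d replicate 3, and Dopey1 in place of Bmp2k without 7d replicate 3). It moved no count for level. With the replicate block, which cannot move a difference in this balanced design, the standard error of the Bmp2k level in 3d vs. sham (-1.23) was 0.21 in place of 0.32. The block changed no call of these circRNAs, with counts of 1, 0 and 1 for level and for expression. In expression, samples of the same number correlated at 0.56, 0.23 and 0.53 in sham and 3d and negatively in the other pairs of groups.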
